A study of Mus musculus with 12 samples.

Results

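The 10 genes described here encode Tim4 (Timd4) and other parts of the machinery by which macrophages recognise and engulf dying cells: the receptors Mertk, Axl, Tyro3, Stab1 and Lrp1, the soluble ligands and bridges Gas6, Pros1 and Mfge8, and the intracellular adaptor Elmo1. They were chosen by gene symbol, and each matched 1 of the 57010 rows of the deposited count table. All 10 passed the filter on low counts, which kept 15943 genes.

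The study sequenced RNA of large peritoneal macrophages, which reside in the abdominal cavity of the mouse, and its title ties Tim4 to the cross-presentation of tumour antigens. The 4 groups held 3 libraries each, all from female mice. WT naive and Tim4KO naive libraries came from uninjected wild-type mice and from mice labelled Tim4 KO, with no age given. WT ID8 and Tim4KO ID8 libraries came from mice injected intraperitoneally at 8 weeks of age with ID8ZGO, an ID8 mouse ovarian tumour line carrying ZsGreen and ovalbumin, and taken 24 h later. From injected mice only macrophages positive for ZsGreen were sorted, so exposure to the tumour cells and uptake of their material cannot be told apart, and naive cells had no such selection. The labels do not say how the Timd4 gene was inactivated, in which cells it was lost, or whether libraries of a group came from separate mice, so p-values measure the spread between these libraries, which may be technical.

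Dying cells expose phosphatidylserine, a lipid that living cells keep on the inner face of the plasma membrane, and engulfment of such cells is called efferocytosis. Tim4 and stabilin-1 (Stab1) bind the lipid directly, whereas Mertk, Axl and Tyro3, the TAM receptor tyrosine kinases, bind it through Gas6 or protein S (Pros1). Mfge8 links it to alpha v integrins, Lrp1 recognises calreticulin on dying cells, and Elmo1 works with Dock proteins to activate Rac and remodel actin. Tim4 is a textbook marker of long-lived resident macrophages, those of the peritoneal cavity among them, and is thought to tether its target and to rely on partner receptors for engulfment.

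The stretches just upstream of 5 of the genes are shown. Timd4 was the knocked-out receptor, and Stab1 the other direct lipid receptor, which followed no group. Gas6 and Mfge8 were bridges that fell after challenge, and Lrp1 was the receptor that rose. Elmo1, which also rose, is not shown. Each stretch is the 250 bases before the annotated start in RefSeq, build GRCm38.p6, written 5′ to 3′ on the gene's strand. They lie at chr11:46810549-46810798 (plus strand) for Timd4, chr14:31168642-31168891 (minus) for Stab1, chr8:13494536-13494785 (minus) for Gas6, chr7:79149061-79149310 (minus) for Mfge8 and chr10:127621149-127621398 (minus) for Lrp1. Capitals mark matches, on either strand, to 9 short motifs: GAGGAA (the PU.1 core), TGCTGA (a short MAF site), AGATAA together with TGATAA (sites of GATA factors), AGGTCA (a short nuclear receptor site), TATAAA (the TATA box), CCAAT (known from many promoters), GGGCGG (the GC box) and CACGTG (the E-box).
Timd4: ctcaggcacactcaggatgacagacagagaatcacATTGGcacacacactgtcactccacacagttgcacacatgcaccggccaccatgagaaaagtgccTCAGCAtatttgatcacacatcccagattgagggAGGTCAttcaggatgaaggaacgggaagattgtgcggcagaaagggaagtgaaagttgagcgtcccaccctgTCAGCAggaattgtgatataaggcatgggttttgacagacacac
Stab1: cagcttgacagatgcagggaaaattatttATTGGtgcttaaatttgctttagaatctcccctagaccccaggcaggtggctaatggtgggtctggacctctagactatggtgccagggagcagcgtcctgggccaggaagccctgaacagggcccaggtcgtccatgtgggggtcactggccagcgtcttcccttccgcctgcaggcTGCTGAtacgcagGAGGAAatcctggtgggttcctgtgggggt
Gas6: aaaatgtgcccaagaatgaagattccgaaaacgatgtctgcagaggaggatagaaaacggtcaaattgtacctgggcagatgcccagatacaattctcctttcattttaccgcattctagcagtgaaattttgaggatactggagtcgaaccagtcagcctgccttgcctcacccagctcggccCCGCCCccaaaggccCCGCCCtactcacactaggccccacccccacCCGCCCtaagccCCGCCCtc
Mfge8: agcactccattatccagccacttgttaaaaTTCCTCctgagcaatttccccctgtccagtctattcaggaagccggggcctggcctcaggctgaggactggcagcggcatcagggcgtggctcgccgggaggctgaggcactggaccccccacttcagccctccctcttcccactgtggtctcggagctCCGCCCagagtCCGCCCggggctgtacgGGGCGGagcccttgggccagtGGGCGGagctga
Lrp1: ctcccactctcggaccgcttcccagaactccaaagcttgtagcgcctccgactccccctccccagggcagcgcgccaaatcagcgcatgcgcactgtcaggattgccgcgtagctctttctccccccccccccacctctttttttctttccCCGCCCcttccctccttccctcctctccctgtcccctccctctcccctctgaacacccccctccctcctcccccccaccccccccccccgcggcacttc
In these 5 stretches no capital letter belongs to more than 1 motif. The Timd4 stretch held 2 matches to TGCTGA, 1 to AGGTCA and 1 to CCAAT, and none to GGGCGG. Stab1 held 1 match to TGCTGA, 1 to GAGGAA and 1 to CCAAT. Gas6 and Mfge8 held 4 matches each to GGGCGG, Mfge8 held 1 to GAGGAA besides, and Lrp1 held 1 to GGGCGG. Of the 32851 promoters of the same length in the table, 16.1% held TGCTGA, 14.0% AGGTCA, 33.8% CCAAT, 32.7% GGGCGG and 23.3% GAGGAA. GC content was 50.0% for Timd4, 57.2% for Stab1, 54.8% for Gas6, 65.2% for Mfge8 and 67.2% for Lrp1, with a median of 52.4% over all promoters. The matches describe letters and not binding.

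Library totals ran from 7358559 to 23170244 counts. Levels are given as CPM (counts scaled to a common library total) with TMM normalisation, which scales libraries by a trimmed mean of their log ratios. The detection floor was set at a count of 3, worth 0.137 to 0.399 CPM depending on the library. Since no molecular identifiers were used, it covers counting error only. All 10 markers of large peritoneal macrophages reached it in every library. They summed to 19464 to 24242 CPM in WT naive and 21160 to 24723 CPM in Tim4KO naive libraries. In WT ID8 libraries they summed to 16046 to 19133 CPM, and in Tim4KO ID8 libraries to 19822 to 20558 CPM. Within each genotype the sum was thus lower in every ID8 library than in every naive one. The third WT ID8 library, the deepest, stood apart: its 10 cell cycle genes summed to 1639 CPM against 59.3 to 241 CPM in the other 11, and reads in olfactory and vomeronasal receptor genes, a measure of background, summed to 5.57 CPM against 39.5 to 862 CPM. Results that this library decides are given below with and without it. Changes are log2 fold changes with standard errors (SE) from edgeR's quasi-likelihood test, and calls were made where the p adjusted over all tested genes by Benjamini-Hochberg was under 0.05. In bulk RNA, fewer cells that express a gene and less RNA per cell cannot be told apart.

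Timd4 was among the most abundant messages of WT cells. Its level was 1178, 1279 and 1489 CPM in the 3 WT naive libraries and 1115, 1452 and 882 CPM in the 3 WT ID8 libraries. In Tim4KO naive libraries it was 7.71, 7.32 and 7.21 CPM, and in Tim4KO ID8 libraries 1.92, 1.85 and 1.38 CPM. Both knockout groups lay far below both WT groups without overlap, so the genotype labels hold in all 12 libraries. The naive and ID8 labels of WT libraries cannot be checked by Timd4, whose WT groups overlapped. Timd4 was 177-fold lower in Tim4KO than in WT naive cells (log2 −7.47, SE 0.22, adjusted p 2.23e-11 by edgeR) and 676-fold lower in ID8 cells (log2 −9.40, SE 0.25, adjusted p 3.94e-12 by edgeR).

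The residual Timd4 signal of the knockout was above the counting floor in all 6 libraries, at 55 to 128 counts in naive and 20 to 25 counts in ID8 libraries. A count per gene does not show which exons these reads came from. The residual signal fell after challenge by 2.13 on the log2 scale (SE 0.23, adjusted p 3.8e-05 by edgeR), with every ID8 library below every naive one. In WT cells, whose groups overlapped, the difference was −0.19 (SE 0.16, adjusted p 0.357 by edgeR). With upper-quartile factors in place of TMM, which moved the median of all genes in this comparison to −0.28, the WT difference became −0.44 (adjusted p 0.0346 by edgeR). The difference between the Tim4KO and WT responses, the interaction, was −1.93 (SE 0.28, adjusted p 0.0888 by edgeR). It passed the threshold when the third WT ID8 library was left out (−2.10, adjusted p 0.000114 by edgeR) and with the background reads as a covariate (−2.04, adjusted p 0.0103 by edgeR). Background reads were 264 to 470 CPM in Tim4KO naive and 39.5 to 353 CPM in Tim4KO ID8 libraries. The 3 Tim4KO ID8 libraries held 39.5, 353 and 279 CPM of background and, in the same order, 1.92, 1.85 and 1.38 CPM of Timd4. Whether background has a part in the residual signal or in its fall was not tested.

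**Figure D1:**
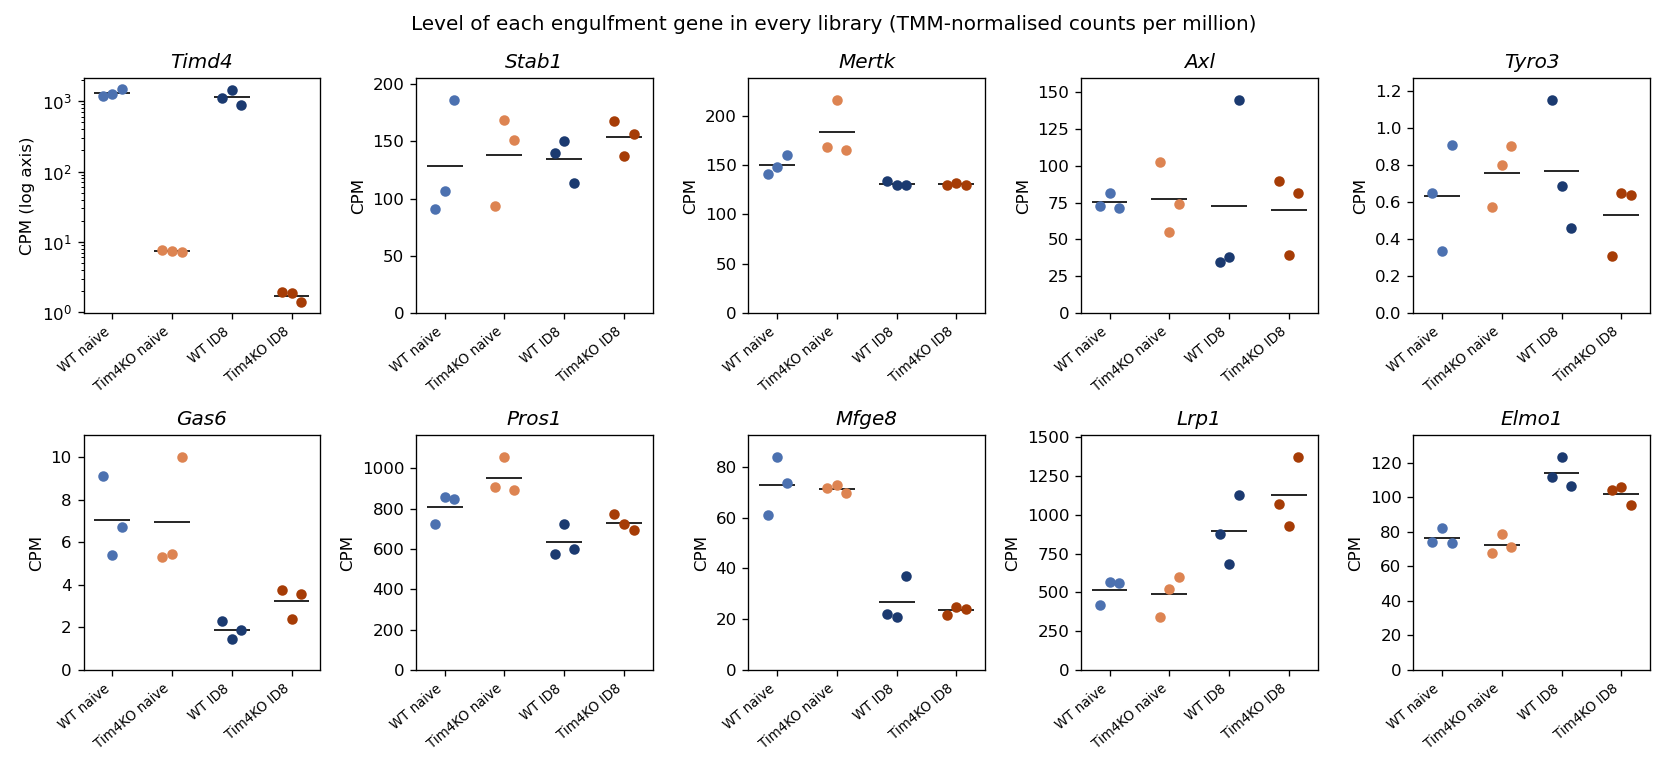
Level of each of the 10 genes in every library, in TMM-normalised CPM, with a linear axis from 0 except for Timd4, whose axis is logarithmic. Points are libraries, coloured by group, and bars are group means of 3 libraries. Timd4 separates the genotypes, while Mfge8, Gas6, Lrp1, Elmo1 and, more narrowly, Mertk separate naive from ID8.

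Loss of Tim4 was accompanied by no called difference in the other 9 genes. Timd4 itself was the 1 member called in naive cells, where 0.0439% of all tested genes were called, and the 1 called in ID8 cells, where 0.0565% were. At an unadjusted p under 0.05, Mertk in naive cells and Gas6 in ID8 cells were added, where 6.27% and 12.1% of all tested genes passed. For 7 of the 9 other genes in naive cells, and for 6 in ID8 cells, the 95% interval of the genotype difference lay within 2-fold in either direction. The exceptions were Axl and Tyro3 in both conditions and Gas6 in ID8 cells. Libraries of the genotypes did not overlap for 3 members in naive cells (Timd4, Mertk and Pros1) and 3 in ID8 cells (Timd4, Gas6 and Elmo1), against 14.2% and 15.6% of all tested genes.

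Challenge gave a different picture. In WT cells 5 of the 10 genes were called, 2 higher and 3 lower, where 31.8% of all tested genes were called, 19.5% higher and 12.3% lower. In Tim4KO cells 6 of 10 were called, 2 higher and 4 lower, against 16.6% of all tested genes, 11.5% higher and 5.06% lower. Both shares of the members, 50% and 60%, were above these backgrounds, a difference for which no test was made. The Tim4KO share counts Timd4 itself, whose residual signal in the knockout was called lower. Calls of Mertk, Gas6 and Elmo1 in Tim4KO, and of Pros1 and Lrp1 in WT, were each lost in some fits that left out 1 library. The naive and ID8 libraries did not overlap for 6 members in WT and 7 in Tim4KO, against 44.4% and 41.9% of all tested genes. The median change of the 10 members, Timd4 included, was −0.12 in WT and −0.44 in Tim4KO, beside medians of −0.04 and −0.05 over all tested genes. No member was called in the interaction by edgeR, where 0% of all genes were called and 7.44% passed an unadjusted p under 0.05, Timd4 being the 1 member among the latter. DESeq2 called 1 member there, Timd4 (−1.93, adjusted p 6.87e-06).

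**Figure D2:**
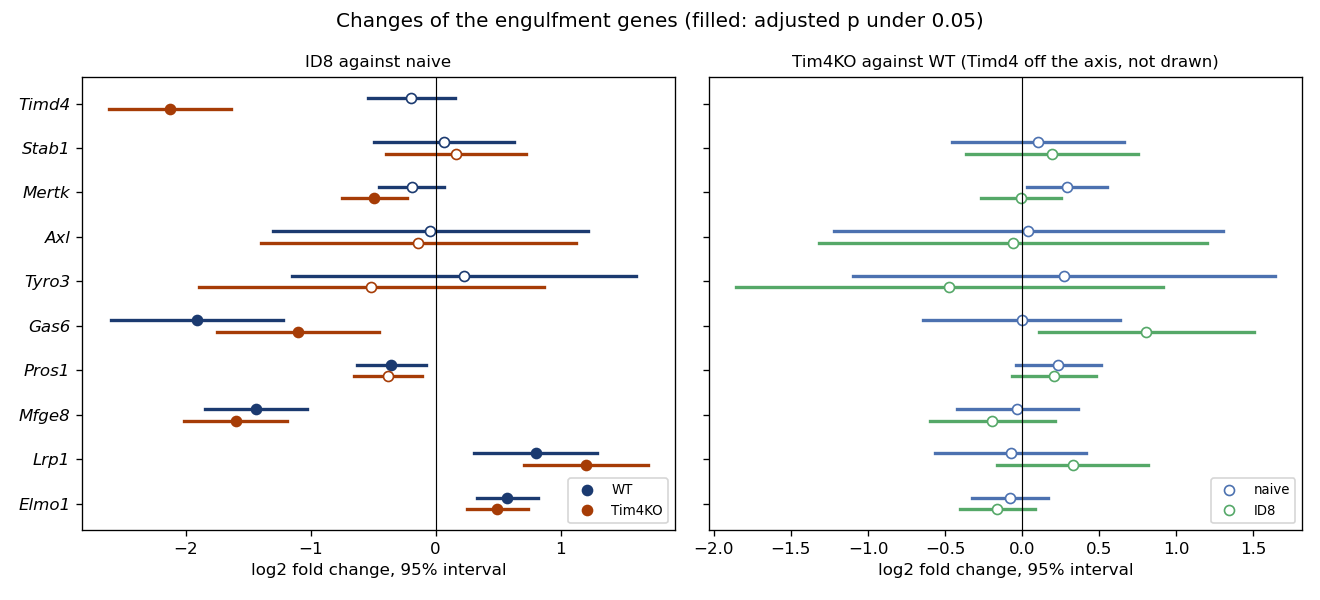
Log2 fold changes of the 10 genes with 95% intervals, for ID8 against naive in each genotype (left) and for Tim4KO against WT in each condition (right, where Timd4 is off the axis at −7.47 and −9.40). Filled points passed an adjusted p under 0.05; on the left Gas6 and Mfge8 lie below 0 and Lrp1 and Elmo1 above it in both genotypes.

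Stab1, the scavenger receptor that binds the lipid directly as Tim4 does, varied among libraries without following a group. Its level was 90.8, 107 and 186 CPM in WT naive, 93.7, 168 and 151 CPM in Tim4KO naive, 140, 151 and 113 CPM in WT ID8, and 168, 137 and 157 CPM in Tim4KO ID8 libraries. All 4 ranges overlapped. Its genotype difference was 0.10 (95% interval −0.46 to 0.66) in naive cells and 0.19 (−0.36 to 0.75) in ID8 cells, so a rise of Stab1 by 2-fold in the absence of Tim4 lay outside both intervals. Of its exonic bases, 112 overlap Nt5dc2 on the opposite strand, and whether the counting used strand is not given in the sources used here.

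Mertk was the leading TAM receptor. It stood at 141, 148 and 160 CPM in WT naive libraries, at 169, 217 and 166 CPM in Tim4KO naive libraries, at 134, 130 and 130 CPM in WT ID8 libraries, and at 130, 132 and 130 CPM in Tim4KO ID8 libraries. The 3 Tim4KO naive libraries were the highest of the 12, and the 6 ID8 libraries lay between 130 and 134 CPM, below every naive library. The genotype difference in naive cells was 0.29 (SE 0.12, unadjusted p 0.0297, adjusted p 0.752 by edgeR) and in ID8 cells −0.01 (95% interval −0.26 to 0.25). In Tim4KO cells Mertk fell by 0.49 after challenge (SE 0.12, adjusted p 0.0126 by edgeR). That call was lost without the second Tim4KO naive library (−0.34, adjusted p 0.124 by edgeR) and without any 1 of the 3 Tim4KO ID8 libraries (adjusted p 0.0706 to 0.0893 by edgeR), and with no filter on low counts (−0.44, adjusted p 0.108 by edgeR). In WT cells the difference was −0.19 (SE 0.12, adjusted p 0.221 by edgeR), which upper-quartile factors made −0.43 (adjusted p 0.011 by edgeR). The interaction for Mertk was −0.30 (SE 0.17, adjusted p 0.704 by edgeR).

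Axl is a TAM receptor whose main ligand is Gas6 and which is induced by inflammatory signals in many macrophages, and its level varied widely within the ID8 groups. Its level was 73.0, 81.6 and 71.5 CPM in WT naive libraries and 102, 55.3 and 74.3 CPM in Tim4KO naive libraries. After challenge it was 34.3, 38.2 and 145 CPM in WT and 89.8, 39.2 and 81.4 CPM in Tim4KO libraries. WT ID8 thus held the 2 lowest libraries and the highest, and no pair of groups separated. The WT challenge difference was −0.04 (SE 0.55, adjusted p 0.956 by edgeR). Without the third WT ID8 library, the 1 at 145 CPM, it was −1.03 (adjusted p 0.0713 by edgeR), and the genotype difference in ID8 cells moved from −0.06 to 0.97 (adjusted p 0.208 by edgeR). With background reads as a covariate, the WT challenge difference was −1.50 (adjusted p 0.0442 by edgeR). Whether the cell cycle signal or the low background of that library has a part in its Axl level was not tested.

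**Figure D3:**
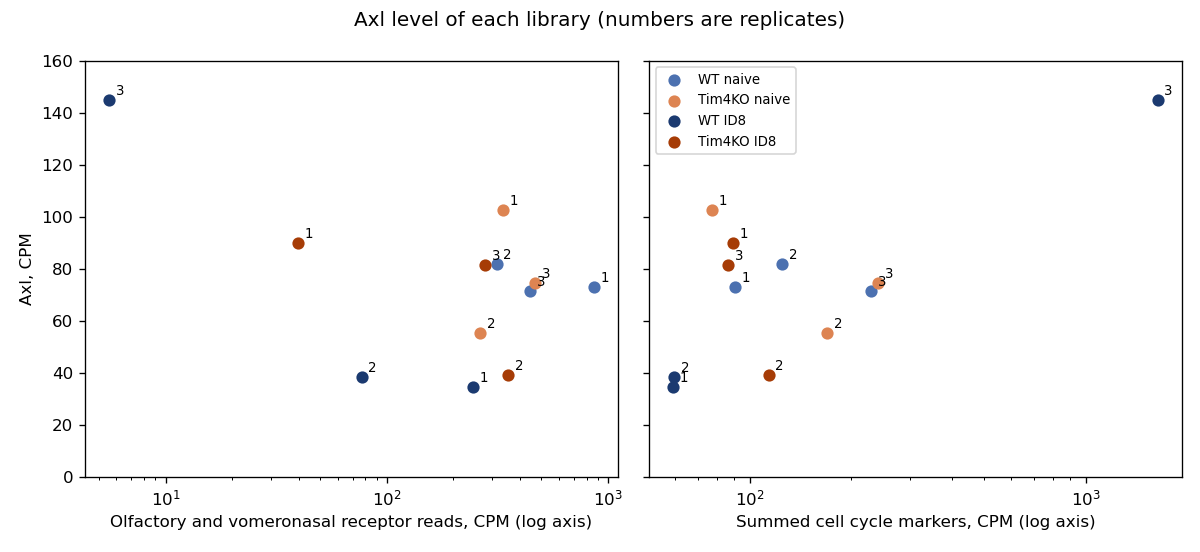
Axl level of each library, in CPM, against the summed reads in olfactory and vomeronasal receptor genes (left) and against the summed cell cycle genes (right), both in CPM on logarithmic axes; points are coloured by group and numbered by replicate. The third WT ID8 library stands alone at 145 CPM of Axl, 5.57 CPM of background and 1639 CPM of cell cycle genes.

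Tyro3, the third TAM receptor, was close to the limit of detection. It had 4 to 16 counts per library and 0.307 to 1.15 CPM, and no difference was detectable at this depth, with intervals such as −1.10 to 1.64 for the naive genotype comparison. Divided by exonic length, so that receptors can be compared with each other, Mertk made up 50.9% to 81.8% of the summed TAM receptor level over the 12 libraries, Axl 18.0% to 49.0% and Tyro3 0.104% to 0.49%. The lowest Mertk share and the highest Axl share were both from the third WT ID8 library.

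Mfge8 and Gas6, both bridging molecules, fell after challenge in each genotype. Mfge8, the secreted bridge to alpha v integrins, was at 60.9, 84.0 and 73.6 CPM in WT naive and 71.7, 73.0 and 69.6 CPM in Tim4KO naive libraries. It was at 21.9, 20.9 and 37.2 CPM in WT ID8 and 21.8, 24.7 and 24.1 CPM in Tim4KO ID8 libraries. Every ID8 library lay below every naive one. Mfge8 fell by 1.44 in WT (SE 0.19, adjusted p 9.46e-05 by edgeR), a 2.71-fold decrease, and by 1.60 in Tim4KO (SE 0.19, adjusted p 9.26e-05 by edgeR), a 3.03-fold decrease. The interaction was −0.16 (95% interval −0.73 to 0.40).

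Gas6, the TAM ligand that binds all 3 receptors, was a low message, with 17 to 178 counts per library. WT naive libraries held 9.10, 5.41 and 6.71 CPM, and Tim4KO naive libraries 5.33, 5.46 and 10.0 CPM. WT ID8 libraries held 2.30, 1.46 and 1.87 CPM, and Tim4KO ID8 libraries 3.77, 2.40 and 3.57 CPM. The 6 ID8 libraries were the lowest, and within them WT lay below Tim4KO without overlap. Gas6 fell by 1.91 in WT (SE 0.32, adjusted p 0.000576 by edgeR), a 3.76-fold decrease, and by 1.10 in Tim4KO (SE 0.31, adjusted p 0.0231 by edgeR), a 2.15-fold decrease. The Tim4KO call was lost without the third Tim4KO naive library, the 1 at 10.0 CPM (−0.71, adjusted p 0.186 by edgeR), and without the second (−0.90, adjusted p 0.122 by edgeR) or the third Tim4KO ID8 library (−1.15, adjusted p 0.0585 by edgeR). The genotype difference in ID8 cells was 0.81 (SE 0.33, unadjusted p 0.026, adjusted p 0.351 by edgeR), and the interaction was 0.81 (SE 0.44, adjusted p 0.68 by edgeR). Of the exonic bases of Gas6, 34 overlap Tmem255b on the opposite strand.

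Summed markers of mast cells, of small peritoneal macrophages or dendritic cells, and of neutrophils were lower in every ID8 library than in every naive one, as the 2 bridges were. For the latter 2 lists the single markers did not all follow the sum. None of the markers below had 0 counts across a whole group. The 6 fibroblast markers summed to 4.27 to 14.2 CPM in WT naive, 3.33 to 8.00 CPM in Tim4KO naive, 0.137 to 2.99 CPM in WT ID8 and 0.692 to 5.54 CPM in Tim4KO ID8 libraries, with 5 to 6, 4 to 6, 0 to 5 and 2 to 6 of the 6 at the floor of 3 counts or above. The 12 tumour, epithelial or mesothelial markers summed to 6.08 to 26.4, 7.79 to 11.2, 1.55 to 6.21 and 2.08 to 7.11 CPM in the same order, with 8 to 11, 5 to 9, 2 to 9 and 3 to 10 of the 12 at the floor. The 6 mast cell markers summed to 16.1 to 39.0, 13.3 to 33.8, 2.30 to 6.10 and 6.22 to 9.53 CPM, with at least 4 of the 6 at the floor in each library. The 7 markers of small peritoneal macrophages or dendritic cells summed to 62.8 to 85.3, 63.1 to 80.2, 16.9 to 43.8 and 37.9 to 49.0 CPM, with 4 to 7 of the 7 at the floor. In WT 4 of these 7 were called lower and 0 higher (median change −0.83). In Tim4KO 1 was called lower and 0 higher, and 4 of the 7 changes were positive (median change 0.11). The 7 neutrophil markers summed to 176 to 241, 190 to 257, 72.0 to 111 and 101 to 112 CPM, but most of their tested members rose. Of 4 tested, 3 were called higher and 1 lower in WT (median change 2.45), and 2 higher and 1 lower in Tim4KO (median change 1.30). Csf3r fell by 1.51 in WT and 1.44 in Tim4KO, whereas S100a8 rose by 1.69 and 1.37. B cell markers summed to 14.2 to 21.8, 8.34 to 13.3, 3.44 to 8.52 and 5.76 to 6.46 CPM. T and NK cell markers overlapped between naive and ID8 libraries, at 4.67 to 6.07, 3.46 to 6.15, 3.19 to 4.83 and 3.23 to 8.68 CPM. Background reads also differed, at 264 to 862 CPM in naive and 5.57 to 353 CPM in ID8 libraries. With background as a covariate the WT falls were −1.86 for Mfge8 (adjusted p 1.62e-05 by edgeR) and −1.78 for Gas6 (adjusted p 0.00774 by edgeR), and the Tim4KO falls −1.72 (adjusted p 1.86e-06 by edgeR) and −1.06 (adjusted p 0.0286 by edgeR). The part of other cells in these falls was not tested.

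Pros1, protein S, which activates Mertk and Tyro3 and also serves as an anticoagulant in plasma, stood second to Timd4 in WT cells by level per exonic length. Its level was 723, 856 and 849 CPM in WT naive, 908, 1057 and 890 CPM in Tim4KO naive, 576, 722 and 600 CPM in WT ID8, and 772, 723 and 695 CPM in Tim4KO ID8 libraries. In each genotype the ID8 libraries lay below the naive ones, and in naive cells the Tim4KO libraries lay above the WT ones. Pros1 fell by 0.35 in WT (SE 0.13, adjusted p 0.048 by edgeR), a call that held in 2 of the 12 fits that each left out 1 library. Those 2 left out the first WT naive and the second WT ID8 library, and in the other 10 the adjusted p was 0.0796 to 0.255 by edgeR. The WT call was also lost with no filter on low counts (−0.25, adjusted p 0.298 by edgeR) and with background as a covariate (−0.42, adjusted p 0.0911 by edgeR). In Tim4KO the difference was −0.38 (SE 0.13, adjusted p 0.056 by edgeR). It passed the threshold in 7 of 9 other settings, with adjusted p from 0.00261 by DESeq2 to 0.0484 by limma voom, and in 0 of the 12 fits that left out a library. The genotype differences were 0.23 (adjusted p 0.811) in naive and 0.21 (adjusted p 0.524) in ID8 cells, both by edgeR.

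Gas6 fell further than Pros1, so the balance of the TAM ligands shifted within the libraries. Per exonic length, Pros1 stood at 49.5 to 98.6 times the level of Gas6 in WT naive libraries and at 156 to 308 times in WT ID8 libraries. In Tim4KO it stood at 55.3 to 121 times in naive and 121 to 188 times in ID8 libraries. These ratios were not tested. The ranges of naive and ID8 libraries were separate in WT, and narrowly so in Tim4KO, where the highest naive ratio was 120.7 and the lowest ID8 ratio 121.3.

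Lrp1, a large endocytic receptor of the LDL receptor family, and Elmo1 moved the other way. Lrp1 was at 417, 568 and 561 CPM in WT naive and 341, 525 and 603 CPM in Tim4KO naive libraries. It was at 876, 685 and 1129 CPM in WT ID8 and 1070, 932 and 1376 CPM in Tim4KO ID8 libraries. Every ID8 library lay above every naive one. Lrp1 rose by 0.80 in WT (SE 0.23, adjusted p 0.0178 by edgeR), a 1.74-fold increase, and by 1.20 in Tim4KO (SE 0.23, adjusted p 0.00325 by edgeR), a 2.30-fold increase. The WT call was lost with upper-quartile factors (0.57, adjusted p 0.0804 by edgeR), with background as a covariate (0.57, adjusted p 0.193 by edgeR) and without the first WT naive library (0.68, adjusted p 0.0709 by edgeR). The interaction was 0.40 (95% interval −0.29 to 1.09).

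Elmo1 was at 74.1, 81.9 and 73.5 CPM in WT naive, 67.7, 79.0 and 70.9 CPM in Tim4KO naive, 112, 123 and 107 CPM in WT ID8, and 104, 106 and 95.6 CPM in Tim4KO ID8 libraries. All ID8 libraries lay above all naive ones, and in ID8 cells the Tim4KO libraries lay just below the WT ones. Elmo1 rose by 0.57 in WT (SE 0.11, adjusted p 0.00185 by edgeR) and by 0.49 in Tim4KO (SE 0.11, adjusted p 0.00907 by edgeR). The Tim4KO call was lost without the third Tim4KO naive (adjusted p 0.0527 by edgeR) or the first Tim4KO ID8 library (adjusted p 0.0508 by edgeR), with nearly the same value. The genotype difference in ID8 cells was −0.16 (95% interval −0.40 to 0.08). Of the exonic bases of Elmo1, 403 overlap the antisense gene Gm32036, whose reads cannot be told apart without strand.

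Ordered by level per length (mean CPM per kb of exon), WT naive cells held Timd4 at 605 ± 73.1 (SD, n = 3 libraries for this and the next values), Pros1 at 198 ± 18.3, Mertk at 34.6 ± 2.23 and Lrp1 at 29.1 ± 4.80. Mfge8 at 15.5 ± 2.47, Axl at 15.0 ± 1.08 and Stab1 at 12.4 ± 4.98 followed, and their ranges overlapped. Elmo1 at 6.08 ± 0.372, Gas6 at 2.78 ± 0.735 and Tyro3 at 0.102 ± 0.0464 came last. Timd4 ranked at the 99.5th percentile of 15671 tested genes with a length in WT naive cells, at the 53.2nd in Tim4KO naive and at the 30.9th in Tim4KO ID8 cells. Without it, Pros1 led both Tim4KO groups, at 233 ± 22.4 and 179 ± 9.51 CPM per kb. Challenge exchanged Mertk and Lrp1: in WT ID8 cells Lrp1 was at 50.6 ± 12.6 and Mertk at 30.3 ± 0.527 CPM per kb, and in Tim4KO ID8 cells at 63.5 ± 12.8 and 30.1 ± 0.255 CPM per kb. Mfge8 dropped below Elmo1 in the ID8 groups, at 5.68 ± 1.95 against 9.06 ± 0.683 CPM per kb in WT and 5.01 ± 0.334 against 8.10 ± 0.440 CPM per kb in Tim4KO.

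**Figure D4:**
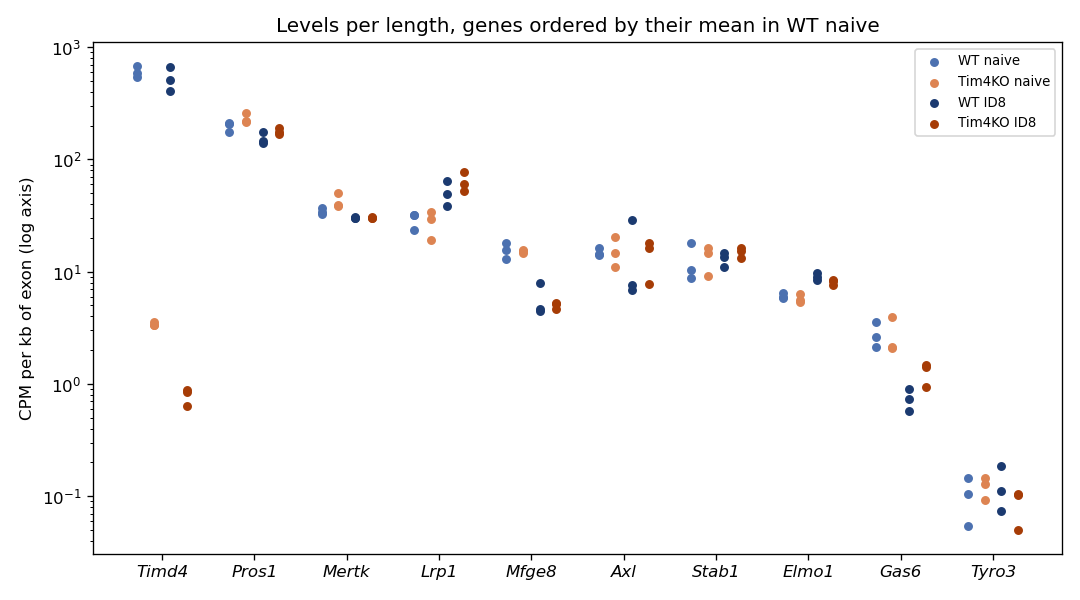
Level of each gene per length, in CPM per kb of exon on a logarithmic axis, with genes ordered by their mean in WT naive cells and 1 point per library, coloured by group. Timd4 and Pros1 lead in WT; Lrp1 rises above Mertk and Mfge8 drops below Elmo1 in the ID8 groups.

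Of other genes of the pathway, 85 were listed in 5 groups, and 80 of them passed the filter. With all libraries none was called between genotypes or in the interaction by edgeR. At an unadjusted p under 0.05, 7 of the 80 passed in naive cells, 12 in ID8 cells and 4 in the interaction. Of all tested genes 6.27%, 12.1% and 7.44% passed, in the same order. DESeq2 called Scarf1, a scavenger receptor, in naive cells, where it called 52 of all genes. In ID8 cells it called Itgb3 and Nr1h3, where it called 266 of all genes. With limma voom 0 of these pathway genes were called. Without the third WT ID8 library, 1 of the genes was called in naive cells (0.167% of all tested genes), 7 in ID8 cells (5.74%) and 5 in the interaction (2.12%) by edgeR, all singled out after their values were seen. In ID8 cells they included Itgb3, Map1lc3a, Rxrb, Abca7 and Dock2, higher in Tim4KO, and Nr1h3, lower in Tim4KO, and in the interaction Itgb3, Map1lc3a, Rxrb and Nr1h3. Abca7, a lipid transporter, differed by 0.98 without that library (adjusted p 0.000661 by edgeR) and by 0.60 with it (adjusted p 0.298 by edgeR). Dock2, a Rac activator, differed by 0.51 without it (adjusted p 0.0428 by edgeR) and by 0.35 with it (adjusted p 0.324 by edgeR). Scarf1 differed by 0.71 in naive cells both without that library (adjusted p 0.0467 by edgeR) and with it (adjusted p 0.178 by edgeR).

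Among other receptors and bridging molecules for dying cells, 21 of 25 were tested, and in WT 7 were higher and 6 lower after challenge, in Tim4KO 6 higher and 1 lower. These were 61.9% and 33.3% of the tested genes of the group, against 31.8% and 16.6% of all tested genes. The group's median change was −0.39 in WT and −0.18 in Tim4KO. Lgals3, galectin-3, rose from 278 ± 31.5 to 717 ± 97.8 CPM in WT (SD, n = 3; log2 1.37, SE 0.14) and by 1.33 in Tim4KO. Calr, calreticulin, which Lrp1 recognises on the dying cell and which is also a chaperone of the endoplasmic reticulum, rose by 1.21 in WT and 1.47 in Tim4KO. Cd300lf, a lipid-binding receptor, rose by 1.62 in WT, from 7.01 ± 1.65 to 21.3 ± 6.34 CPM (SD, n = 3), and by 1.34 in Tim4KO. Anxa1, annexin A1, rose by 0.57 in WT and 0.84 in Tim4KO, and its WT call was lost with upper-quartile factors, only the 2 groups or background as a covariate (adjusted p 0.0556 to 0.112 by edgeR). C1qa and C1qc, chains of complement C1q, fell by 0.73 and 0.68 in WT, while in Tim4KO the difference of C1qa was −0.40 (adjusted p 0.0757 by edgeR).

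The integrins that bind Mfge8 did not move together. Itgb3, the beta 3 chain, fell from 20.9 ± 2.23 to 5.57 ± 3.29 CPM in WT (SD, n = 3; log2 −1.86, SE 0.29, adjusted p 0.000367 by edgeR) and by 1.16 in Tim4KO (SE 0.28, adjusted p 0.0109 by edgeR). WT ID8 libraries held 3.91, 3.44 and 9.35 CPM, and the WT fall was 2.49 without the third of them (adjusted p 2.23e-09 by edgeR) and 2.65 with background as a covariate. Without that library Itgb3 was higher in Tim4KO than in WT ID8 cells by 1.69 (adjusted p 3.09e-05 by edgeR; with it 1.03, adjusted p 0.21), and the interaction was 1.35 (adjusted p 0.00631 by edgeR; with it 0.69, adjusted p 0.697). The Tim4KO call of Itgb3 was lost without the second or the third Tim4KO naive or the second Tim4KO ID8 library (adjusted p 0.0515 to 0.075 by edgeR). Itgb5, the beta 5 chain, and Itgav, the alpha v chain, were singled out after their values were seen. Itgb5 rose from 2.90 ± 0.486 to 8.60 ± 2.68 CPM in WT (SD, n = 3; log2 1.58, SE 0.33, adjusted p 0.00235 by edgeR) and by 1.03 in Tim4KO (SE 0.32, adjusted p 0.0406 by edgeR). That Tim4KO call held in 12 of 21 other fits: it was lost without the first WT naive, the first or second Tim4KO naive or any 1 of the Tim4KO ID8 libraries, and in 3 of 9 other settings, with adjusted p 0.0511 to 0.145. Itgav rose by 0.58 in WT (SE 0.16, adjusted p 0.0118 by edgeR), a call lost without the first WT naive library (adjusted p 0.0541 by edgeR) and in 2 other settings, and its difference in Tim4KO was 0.25 (adjusted p 0.319 by edgeR).

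Of 20 genes that carry the engulfment signal to the actin skeleton, 5 were higher and 1 lower in WT, and 3 higher and 1 lower in Tim4KO, with a median change of 0.14 and 0.01. The shares called, 30% and 20%, were near the 31.8% and 16.6% of all tested genes. Dock5, a Rac activator that pairs with Elmo proteins, rose by 0.90 in WT (SE 0.16, adjusted p 0.000952 by edgeR) and by 0.61 in Tim4KO. Rhog, a small GTPase upstream of Elmo, rose by 0.59 and 0.47, and Elmo2, a relative of Elmo1, by 0.53 in WT and 0.60 in Tim4KO. Ptk2, focal adhesion kinase, rose by 0.58 in WT. Arhgap12, which inactivates Rac, fell by 0.64 in WT and 0.56 in Tim4KO. The WT calls of Dock5 and Arhgap12 held in all 21 other fits, those of Rhog and Ptk2 in 20, and that of Elmo2 in 15, with losses without the first or the third WT naive or the second WT ID8 library. In Tim4KO the calls of Dock5, Elmo2, Rhog and Arhgap12 held in 17, 17, 15 and 16 of 21 fits, and each was lost without the third Tim4KO naive or the first Tim4KO ID8 library, among others, with adjusted p up to 0.148.

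Of 18 genes of corpse degradation and LC3-associated phagocytosis, 5 were higher and 4 lower in WT, and 2 higher in Tim4KO, with a median change of 0.09 and 0.05. The shares called were 50% in WT, against 31.8% of all tested genes, and 11.1% in Tim4KO, against 16.6%. Dnase2a, the lysosomal nuclease that digests the DNA of engulfed cells, rose from 56.4 ± 5.78 to 109 ± 4.91 CPM in WT (SD, n = 3; log2 0.95, SE 0.11, adjusted p 4.32e-05 by edgeR) and by 0.85 in Tim4KO. Atg7 and Atg3, enzymes that attach LC3 to membranes, rose by 0.53 and 0.66 in WT, and Atg7 by 0.54 in Tim4KO. Map1lc3a, an LC3 gene, fell by 1.48 in WT, Uvrag by 0.46 and Atg12 by 0.43. Map1lc3a was at 11.28, 12.03 and 30.21 CPM in WT ID8 libraries, and its WT fall was 2.10 without the third of them (adjusted p 2.33e-07 by edgeR) and 2.45 with background as a covariate. Without that library Map1lc3a was higher in Tim4KO than in WT ID8 cells by 1.26 (adjusted p 0.00148 by edgeR; with it 0.61, adjusted p 0.486), and the interaction was 1.48 (adjusted p 0.00657 by edgeR; with it 0.84, adjusted p 0.704). The WT calls of Dnase2a, Atg3 and Map1lc3a held in all 21 other fits. The WT call of Atg7 held in 18, that of Uvrag in 17, with losses without the second or the third WT naive or the first WT ID8 library, and that of Atg12 in 12, with losses without 7 of the 12 libraries (adjusted p 0.056 to 0.153 by edgeR). The Tim4KO call of Atg7 was lost without the third Tim4KO naive or the first or second Tim4KO ID8 library (adjusted p up to 0.11 by edgeR).

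Of 11 nuclear receptors and factors known to raise engulfment receptors, 1 was higher and 1 lower in WT, 18.2% against 31.8% of all tested genes, and 0 were called in Tim4KO, with a median change of 0.06 and −0.0018. Nr1h3, the liver X receptor alpha, a lipid sensor known to induce Mertk, rose from 4.57 ± 1.25 to 20.0 ± 11.4 CPM in WT (SD, n = 3; log2 2.11, SE 0.33, adjusted p 0.000416 by edgeR). In Tim4KO its difference was 0.85 (SE 0.33, adjusted p 0.0968 by edgeR), and the interaction was −1.26 (SE 0.46, adjusted p 0.668 by edgeR). WT ID8 libraries held 15.2, 33.0 and 11.8 CPM of Nr1h3. Without the third of them it rose by 2.41 in WT (adjusted p 2.41e-06 by edgeR) and by 0.87 in Tim4KO (adjusted p 0.0265 by edgeR), and the interaction was −1.55 (adjusted p 0.0449 by edgeR). Tim4KO ID8 cells then lay below WT ID8 cells by 1.38 (adjusted p 0.00497 by edgeR), against 1.10 with all libraries (adjusted p 0.231 by edgeR). Rxrb, a partner of such receptors, fell by 0.57 in WT, a call lost without the second or the third WT naive or the first or second WT ID8 library (adjusted p 0.0654 to 0.0958 by edgeR). Without the third WT ID8 library Rxrb was higher in Tim4KO than in WT ID8 cells by 0.76 (adjusted p 0.00393 by edgeR; with it 0.50, adjusted p 0.277), and the interaction was 0.77 (adjusted p 0.0436 by edgeR; with it 0.52, adjusted p 0.668). Of 10 tested brakes and receptor-shedding genes, 3 were higher in WT and 1 in Tim4KO, 30% and 10% against 31.8% and 16.6% of all tested genes, with a median change of 0.14 and −0.04. Sirpa, the receptor for the signal CD47, rose by 0.60 and 0.45, and the sheddases Adam17, which cleaves Mertk, and Adam10 rose by 0.66 and 0.56 in WT. The Tim4KO call of Sirpa was lost without any 1 of the 6 Tim4KO libraries (adjusted p 0.0648 to 0.117 by edgeR), and the WT call of Adam10 without the first WT naive library (adjusted p 0.0506 by edgeR) and in 3 other settings. Background as a covariate also removed the WT call of Sirpa (0.42, adjusted p 0.0739 by edgeR).

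**Figure D5:**
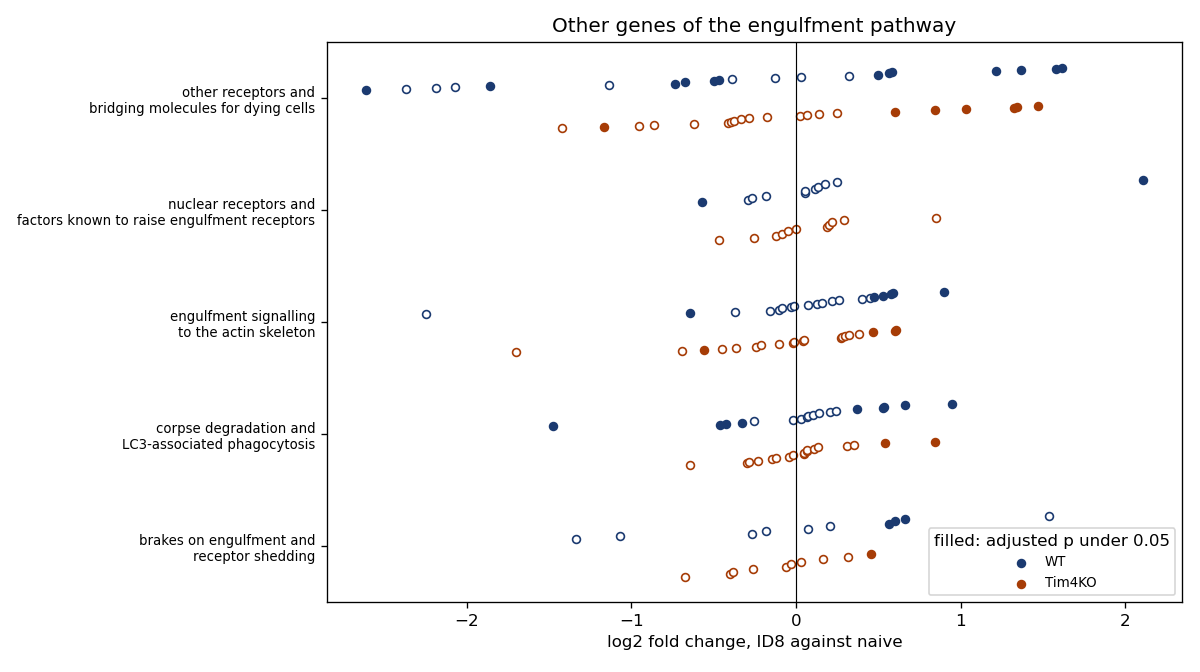
Log2 change after challenge (ID8 against naive) of 80 other tested genes of the pathway, by group, in WT and Tim4KO cells. Each point is a gene and filled points passed an adjusted p under 0.05; called genes lie on both sides of 0 among receptors and bridging molecules.

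For the 5 members whose log2 level varied by an SD of at least 0.5 among libraries, the genes of mean level at least 10 CPM with the most similar profile over the 12 libraries were found, by the root mean square difference of centred log2 levels among 8176 candidates. For Mfge8 these were Hexa at 0.16 and Stat4 at 0.19. For Gas6 they were Hal at 0.22 and Cd163 at 0.24, and for Lrp1 Uggt1 at 0.22 and Dnm1 at 0.24. Axl was nearest to Fam107b and Aes, both at 0.30. Timd4 had no close gene, the nearest being Cyp26a1 at 3.51 and Wdfy1 at 3.62. The likeness is a description over libraries that share groups, depth and background.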

How the data were processed

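Each sample was RNA of sorted large peritoneal macrophages, prepared with the SMART-Seq mRNA LP kit per the labels' protocols. The authors deposited raw counts of reads per Ensembl gene as 1 table, a unit read from its whole numbers and unequal totals. Per the submitters' processing notes, FastQC, STAR 2.5, mm10 and GRCm39 were used, with no role given. How reads were counted (program, annotation, strand, multi-mapping) is not given in the sources used here. Symbols, for 52029 of 57010 genes, and exonic lengths came from GENCODE vM21, and promoter sequences from RefSeq GRCm38.p6, used for these purposes only.

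Counts were fitted with edgeR 4.0.16 in R 4.3.3 (TMM factors, filterByExpr, robust glmQLFit, 1 mean per group, 12 libraries, 8 residual degrees of freedom), with two-sided F tests for 5 comparisons. Standard errors were taken from the change and its F statistic (size of the change over the root of F). The interaction is the Tim4KO response minus the WT response. Libraries of a group differed by 5.17 to 71.6 in chi-square per degree of freedom, so none was counted as a duplicate. The code was tested on simulated data for ID8 against naive in WT, with 200 genes changed among 15943. The filter then kept 15012 genes, and shares are over the changed genes it kept. Of those changed 2-fold 43.6% were called, and of those changed 4-fold 74.7%, with 6 false calls.

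The members, lists and tests were chosen with earlier results of these data known. All members are named. Of each pathway list, the called genes with the smallest adjusted p, up to 3 per direction and comparison, are named, and others are said to be chosen after their values were seen. Background is the sum over 1713 olfactory and vomeronasal receptor genes. Alternatives were size factors of DESeq2 1.42.0, upper-quartile factors, no filter, a mean of at least 1 CPM, DESeq2, voom of limma 3.58.1, only the 2 groups compared, background as a covariate, a replicate block, and leaving out each library in turn.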

Additional observations from a re-analysis of the deposited data

How the results depend on the processing

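Over the 9 other settings and 12 fits that left out 1 library each, 0 of the member results that were called changed sign. Of 32 pathway gene results named by the rule, 17 kept their call in all of these fits and 15 lost it in at least 1. The pathway genes called between genotypes, 0 in ID8 cells, became 2 with no filter, 2 with DESeq2, 4 with background as a covariate and 7 without the third WT ID8 library. The number of members called stayed within 1.5 times in the genotype and challenge comparisons, and rose from 0 to 1 in the interaction with no filter on low counts, with DESeq2, with background as a covariate and without the third WT ID8 library, Timd4 each time. Depth limits Tyro3, and the spread between libraries limits the precision of Axl and Stab1. For Axl in the WT challenge the SE fell to 0.38 without the third WT ID8 library. For the pathway genes and their lists, settings were added with the data in view.

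Counts over all genes moved more. Between genotypes, 7 naive calls became 59 with no filter, 52 with DESeq2, 4 with limma voom and 2 with only the 2 groups, and 1 to 29 with a library left out. The 9 ID8 calls became 264 with no filter, 266 with DESeq2, 179 with background as a covariate, and 1 to 997 with a library left out. The 5067 WT challenge calls became 3102 with only the 2 groups and 3362 to 7230 with a library left out, and the 2642 Tim4KO calls 1222 to 3595 with a library left out. Interaction calls rose from 0 to 73 with no filter, 11 with DESeq2, 2 with background as a covariate and up to 368 with a library left out. Upper-quartile factors lowered the share of challenge calls that were higher from 61.3% to 33.9% in WT and from 69.5% to 48.7% in Tim4KO, with medians over all genes of −0.28 and −0.17.

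Replicate numbers did not pair the libraries: of 18 same-numbered pairs 5 had a correlation of deviations over 0.1 (range −0.43 to 0.37), and 3 of 12 libraries correlated best with their own number. With the replicate block the members called stayed at 1, 1, 5, 6 and 0, all-gene calls were 3, 14, 4619, 2562 and 0 in the order naive genotype, ID8 genotype, WT challenge, Tim4KO challenge and interaction, and Axl was −0.033 in the naive genotype comparison, 0.038 in the ID8 genotype comparison and 0.071 in the interaction.

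The direction of 19 of 50 member results, none called, turned at least once, and the cause was not tested. With upper-quartile factors the values became Axl −0.0098 in the naive genotype comparison, Mertk 0.068 and Axl 0.011 in the ID8 genotype comparison, Tyro3 −0.0048 and Stab1 −0.17 in the WT challenge and Axl 0.021, Pros1 0.10 and Elmo1 0.044 in the interaction. With background as a covariate the values became Axl −0.12 and Gas6 0.025 in the naive genotype comparison, Axl 0.82 and Mfge8 0.064 in the ID8 genotype comparison and Axl 0.94, Pros1 0.017 and Mfge8 0.14 in the interaction. With no filter on low counts the values became Gas6 0.017 in the naive genotype comparison and Axl 0.094 in the WT challenge. With limma voom the values became Gas6 0.090 in the naive genotype comparison, Axl 0.16 in the ID8 genotype comparison and Axl 0.16 in the interaction. With genes of a mean of at least 1 CPM the values became Mertk 0.021 in the ID8 genotype comparison, Stab1 −0.031 in the WT challenge and Pros1 0.020 in the interaction. With only the 2 groups compared the values became Mertk 0.024 in the ID8 genotype comparison and Stab1 −0.030 in the WT challenge. With a library left out, in the naive genotype comparison the ranges were −0.21 to 0.24 for Axl, −0.036 to 0.66 for Tyro3, −0.38 to 0.21 for Gas6, −0.14 to 0.10 for Mfge8, −0.094 to 0.48 for Stab1 and −0.25 to 0.13 for Lrp1. In the ID8 genotype comparison the ranges were −0.44 to 0.97 for Axl and −0.37 to 0.14 for Mfge8. In the WT challenge the ranges were −1.03 to 0.37 for Axl, −0.093 to 0.65 for Tyro3 and −0.12 to 0.47 for Stab1. In the Tim4KO challenge the ranges were −0.34 to 0.19 for Axl and −0.034 to 0.35 for Stab1. In the interaction the ranges were −0.48 to 0.92 for Axl, −0.14 to 0.064 for Pros1, −0.35 to 0.16 for Mfge8 and −0.29 to 0.28 for Stab1.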
